A study of Mus musculus with 12 samples.

Results

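The genes described here copy chromatin and DNA methylation onto newly replicated DNA. There are 10 of them: Dnmt1, Uhrf1 and Hells, which maintain DNA methylation, Ezh2, Eed and Suz12, the core of Polycomb repressive complex 2 (PRC2), Chaf1a and Chaf1b, subunits of chromatin assembly factor 1 (CAF-1), and the histone chaperones Asf1a and Asf1b. They were chosen by name, through the probe sets annotated to 1 of these symbols only, among 12980 genes tested. All 10 had such a probe set and all 10 passed the filter on low values, so no member was lost. By mean probe set signal over all arrays they ranked between the 62.4th percentile of the tested genes (Hells) and the 99.1st (Asf1b).

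RNA of sorted mouse spleen cells that carried Ter119 and much CD71, the surface pattern of dividing erythroid precursors, was measured on 12 Affymetrix arrays. The arrays fall into 4 genotype groups of 3 biological replicates, all from mice of 3 months: wild type (WT), E2f8 KO, Rb KO and the Rb;E2f8 double knockout (DKO). The sources used here do not state how the alleles were deleted, whether a Cre driver was used, or the strain and sex of the animals. Values are on a log2 scale as deposited, so a difference of 1 is a factor of 2 (a 2-fold change), and a level of 1 probe set cannot be set against that of another.

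When a replication fork passes, the new strand carries no DNA methylation and parental histones are shared between both daughter strands. Uhrf1 binds the hemimethylated CpG sites and brings in Dnmt1, which methylates the new strand, and Hells remodels nucleosomes so that methylation can be placed. Asf1 proteins hand new histone H3-H4 to CAF-1, which deposits it behind the fork through contact with the clamp Pcna, and PRC2 restores the H3K27 methyl mark. Genes of this kind are classical targets of E2F transcription factors, among which E2f8 acts as a repressor and to which the retinoblastoma protein binds.

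Every direction below rests on the labels as given, since the Rb1 signal followed its labels only in part and the E2f8 signal did not follow them. The Rb1 log2 level was 13.02, 12.74 and 12.71 on the arrays labelled WT, 12.53, 12.33 and 12.39 on those labelled Rb KO, and 12.23, 11.98 and 12.17 on those labelled DKO. DKO against WT gave a fall of the kind its label calls for (-0.70 ± 0.11 SE, adjusted p = 0.000483). Rb KO against WT gave -0.41 ± 0.11 (adjusted p = 0.394), with all Rb KO arrays below all WT arrays. Yet the Rb1 level was lowest on the arrays labelled E2f8 KO, at 11.74, 11.68 and 11.72 (difference to WT -1.11 ± 0.11, adjusted p = 0.000154). The E2f8 signal rose in E2f8 KO by 0.86 ± 0.19 (adjusted p = 0.00728) and in DKO by 1.18 ± 0.19 (adjusted p = 0.000478). Where these probes lie relative to the deleted parts was not tested. E2f8 KO replicate 3 and DKO replicate 3 had an Xist level of 5.22 and 3.99 against 11.30 to 12.18 elsewhere, with the Y-linked gene Eif2s3y at 8.17 and 7.82, so 1 array of each of these groups differed from the other arrays in this signal.

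Erythroid markers were high, with group means from 12.56 to 12.98 over 8 measured markers of 12 listed, among them Alas2, the heme synthesis enzyme of red cells (13.80 to 14.24), and Tfrc, which encodes CD71 (12.28 to 12.96). Of these 8, 1 rose and 1 fell in E2f8 KO against WT, where 11.9% of all genes rose and 14.2% fell. In DKO against WT 1 rose and 1 fell (20.6% and 17.6% of all genes), and in DKO against Rb KO 4 rose and 1 fell (19.5% and 17.6%). Their median differences were 0.23, 0.19 and 0.41. Markers of other spleen cells were present too, and they moved with the groups compared below. The mean level of 14 B cell markers was 11.14 ± 0.75 (SD, n = 3) for WT and 11.26 ± 1.18 for Rb KO, but 8.32 ± 0.20 for E2f8 KO and 6.92 ± 0.59 for DKO. Of these 14 genes, 13 fell in E2f8 KO against WT and 14 in DKO against WT and against Rb KO, while 3 fell in DKO against E2f8 KO. The marker with the highest WT signal, Cd74, had a group mean of 13.13 on WT arrays and of 8.59 on DKO arrays. Macrophage markers (15 measured) fell from a mean of 9.55 in WT to 8.32 in E2f8 KO, 12 of the 15 passing the test, and to 7.41 in DKO, 13 of the 15 passing it; Rb KO lay at 8.72. All 8 T cell markers fell in E2f8 KO and in DKO against WT, and granulocyte markers rose, 10 of 16 and 11 of 16. In RNA from a whole sorted fraction, a different share of cells of a type and a different amount of RNA per cell cannot be told apart.

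**Figure D1:**
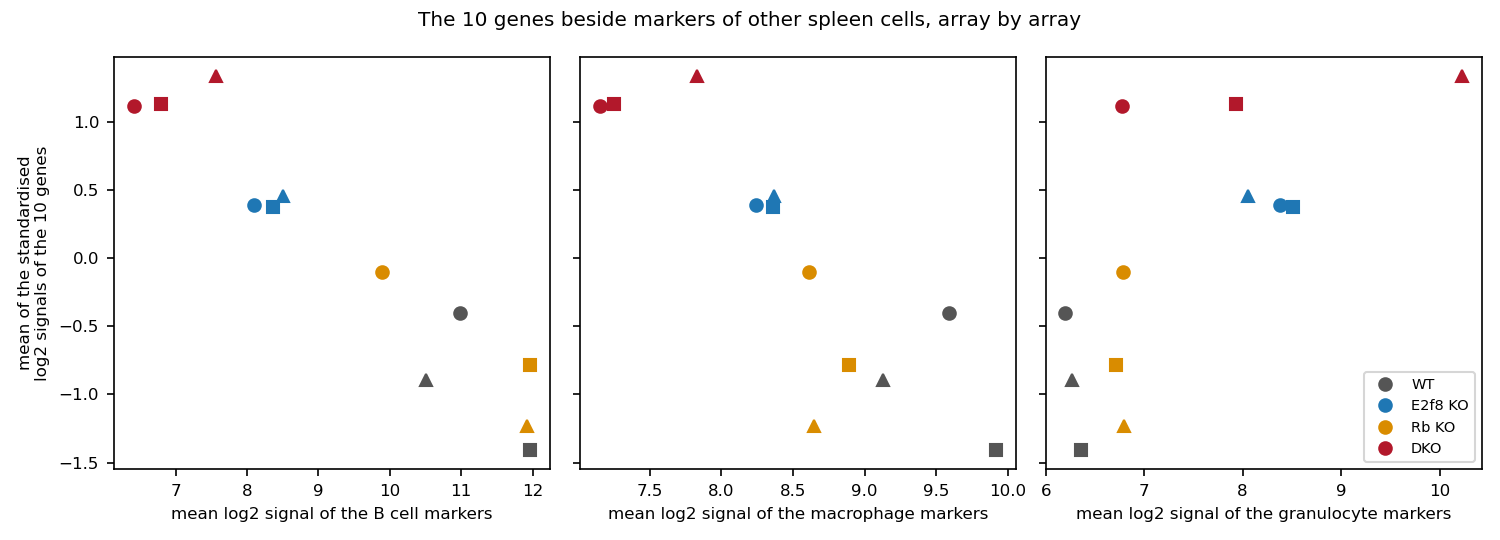
Mean of the standardised log2 signals of the 10 genes (vertical axis) against the mean log2 signal of the B cell, macrophage and granulocyte markers (horizontal axes), 1 point per array; colours are genotype labels and circle, square and triangle are replicates 1, 2 and 3. The E2f8 KO and DKO arrays (B cell marker mean 6.41 to 8.50) lie above 0 on the vertical axis, at 0.38 to 1.34, and the WT and Rb KO arrays (9.89 to 11.97) lie below it, at -1.41 to -0.10.

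On the arrays labelled E2f8 KO, 8 of the 10 genes were higher than in WT by limma with Benjamini-Hochberg adjustment over all tested genes, where 11.9% of all genes rose and 14.2% fell. None of the 10 fell. The largest rise was that of Asf1a (2.71-fold) and the smallest that passed the test that of Dnmt1 (1.55-fold); Hells and Chaf1b did not pass. For 9 of the 10 genes all E2f8 KO arrays lay above all WT arrays, as for 22.3% of all genes. The median log2 difference of the 10 genes was 0.79, against 0.06 over all genes.

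In Rb KO against WT 0 of the 10 genes were called, beside 0% of all genes upward and 0.0077% (1 gene) downward, and 597 genes, 4.6%, had an unadjusted p under 0.05. Without Rb KO replicate 1, 139 of all genes were called, and still 0 of the 10. The median difference was 0.13, against 0.04 over all genes. In none of the 10 genes did the groups separate upward, which 2.25% of all genes did. The 95% confidence intervals still allow changes of moderate size, for Uhrf1 from 0.05 to 0.85, for Asf1a from -0.81 to 0.36 and for Asf1b from -0.40 to 0.43.

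In DKO all 10 genes rose against WT, where 20.6% of all genes rose and 17.6% fell. All 10 also rose against Rb KO, where 19.5% rose and 17.6% fell. Their medians were 1.30 and 1.16, against 0.00 and -0.01 over all genes, and in every gene the DKO arrays lay above all WT and all Rb KO arrays, as for 24.5% and 23.2% of genes. DKO against E2f8 KO called 0 of the 10 (1.73% of all genes rose and 0.647% fell), although all 10 differences were above 0, with a median of 0.43. In 8 of them the DKO arrays lay above all E2f8 KO arrays, as for 18.1% of all genes. That count of 0 depended on the fit: with only the 6 arrays of these groups in the model, 6 of the 10 rose (Dnmt1, Uhrf1, Hells, Ezh2, Chaf1a and Chaf1b, adjusted p from 0.00136 to 0.0454), with array weights 5 rose, and without Rb KO replicate 1 or 3 Uhrf1, Hells and Chaf1b rose. Uhrf1 and Hells also did so without WT replicate 1 or 2. The calls over all 12980 genes changed too, from 308 to 1262 with only these groups in the model and to 2368 with array weights. They were 711 and 344 without Rb KO replicate 1 and 3, and 339 and 274 without WT replicate 1 and 2. The interaction, which asks whether the E2f8 difference is larger on the Rb KO background, was called for 0 of the 10 (0.0539% of all genes upward, 0.0231% downward). All comparisons against WT share the WT arrays, so their values are given side by side and are not independent.

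**Figure D2:**
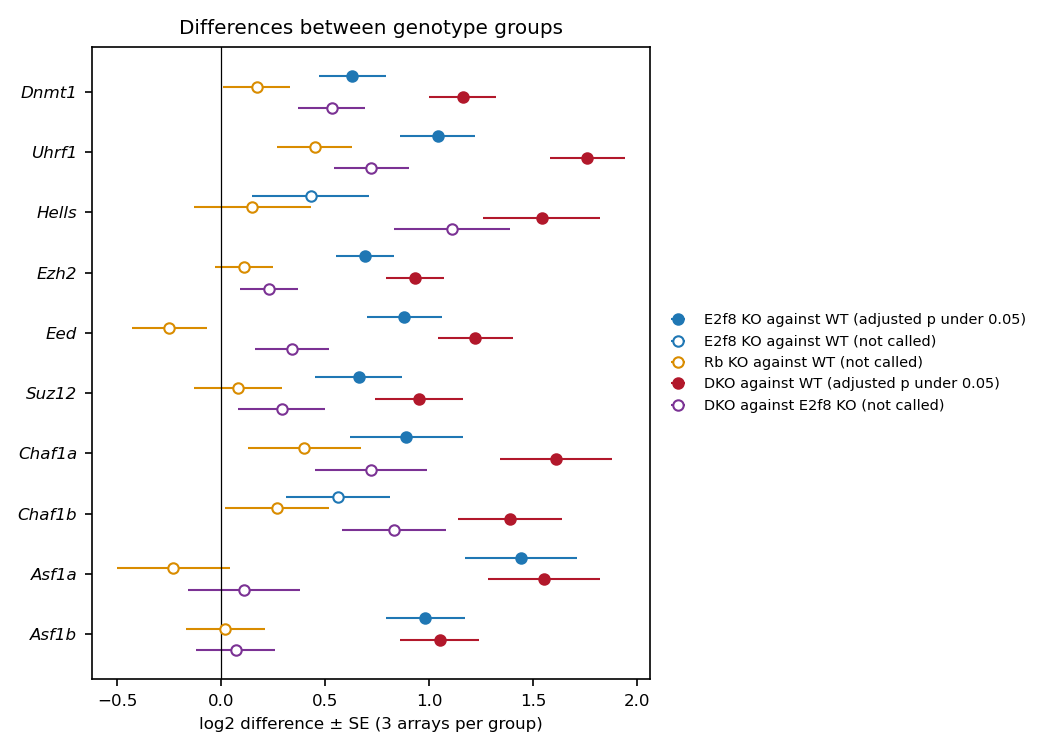
Log2 difference (horizontal axis, bars ±1 SE) of each of the 10 genes for 4 comparisons; filled points have an adjusted p under 0.05. In E2f8 KO against WT 8 points are filled, in DKO against WT all 10, and in Rb KO against WT and DKO against E2f8 KO none.

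The calls in E2f8 KO against WT depended on single arrays for 3 genes. Without WT replicate 2, or without E2f8 KO replicate 1, 5 genes were called rather than 8, with Dnmt1, Suz12 and Chaf1a lost. The calls over all genes fell as well, from 3388 to 1538 and 1890, so the loss was not particular to these genes. Suz12 was also lost without WT replicate 3, E2f8 KO replicate 2 or 3, or DKO replicate 2, and Chaf1a without WT replicate 3 or E2f8 KO replicate 2 or 3. Chaf1b gained a call without Rb KO replicate 1 or 3, for 9 genes, where 4377 and 3594 of all genes were called. Without both arrays that carried the Y-linked signal 6 genes were called (2099 of all genes), and the 10 calls of DKO against WT and against Rb KO were kept without any 1 array. When the B cell marker mean was added to the model as a covariate, 0 of the 10 genes were called in E2f8 KO against WT, in DKO against WT and in DKO against Rb KO. In the same comparisons the calls over all 12980 genes went from 3388 to 284, from 4952 to 958 and from 4819 to 511, so few genes of any kind were called. That covariate is itself separated by genotype label, so the part of the labels and the part of the marker level in these differences largely cannot be told apart.

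**Figure D3:**
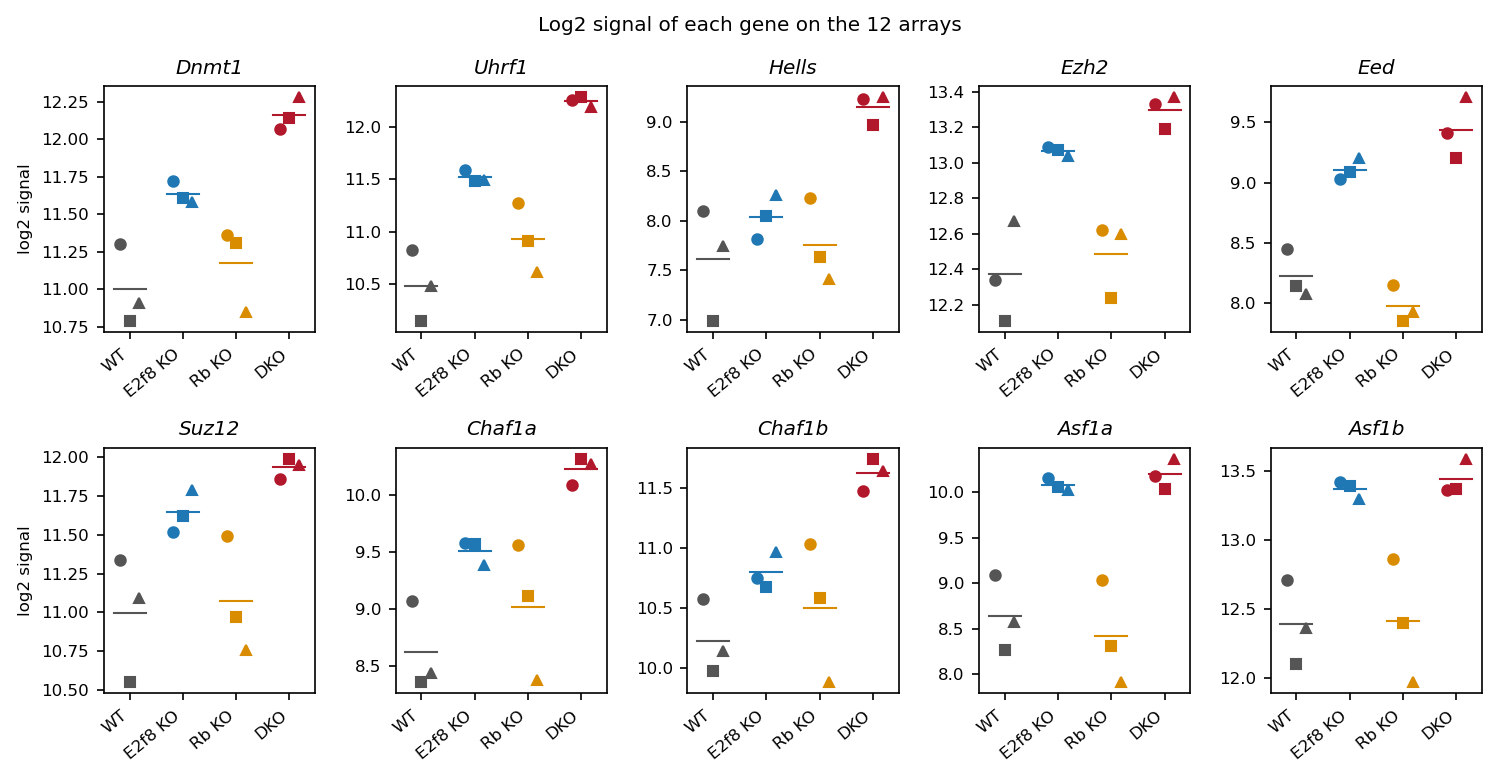
Log2 level (vertical axis, its own range in each panel) of each of the 10 genes on each of the 12 arrays, by genotype label; circle, square and triangle are replicates 1, 2 and 3 and the line is the group mean. The E2f8 KO and DKO arrays lie above the WT arrays in every panel but that of Hells, where only the DKO arrays (8.97 to 9.25) lie clear of WT (6.99 to 8.10).

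Dnmt1, the maintenance DNA methyltransferase (probe set 10591369), had log2 levels of 11.30, 10.79 and 10.91 on the WT arrays and 11.72, 11.61 and 11.58 on the E2f8 KO arrays. The Rb KO arrays read 11.36, 11.31 and 10.85, and the DKO arrays 12.07, 12.14 and 12.28. The DKO arrays were the highest and the E2f8 KO arrays came next, each clear of the WT and Rb KO arrays, which overlapped. The difference to WT was 0.63 ± 0.16 (SE, adjusted p = 0.014) in E2f8 KO and 1.16 ± 0.16 (adjusted p = 0.000187) in DKO, and 0.17 ± 0.16 (adjusted p = 1) in Rb KO. Uhrf1, the reader of hemimethylated CpG sites (probe set 10446074), was at 10.82, 10.15 and 10.48 (WT), at 11.59, 11.48 and 11.49 (E2f8 KO), at 11.27, 10.91 and 10.61 (Rb KO) and at 12.25, 12.28 and 12.19 (DKO). The E2f8 KO arrays lay above all WT and Rb KO arrays and below all DKO arrays. It had the largest rise of the 10 genes in DKO against WT, 1.76 ± 0.18 or 3.38-fold (adjusted p = 2.96e-05), and rose by 1.04 ± 0.18 (adjusted p = 0.00262) in E2f8 KO. Its Rb KO difference, 0.45 ± 0.18, was the largest of the 10 in that comparison but did not pass the test (adjusted p = 0.938), and the groups overlapped.

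Hells, the SNF2-family remodeller (probe set 10462973), behaved less evenly. Its levels were 8.10, 6.99 and 7.75 (WT), 7.82, 8.05 and 8.26 (E2f8 KO), 8.23, 7.63 and 7.41 (Rb KO), and 9.23, 8.97 and 9.25 (DKO). The WT, E2f8 KO and Rb KO arrays overlapped and the DKO arrays stood above all of them. E2f8 KO gave 0.43 ± 0.28 (adjusted p = 0.276), with an interval from -0.17 to 1.03. That value ranged from 0.12 without WT replicate 2 to 0.67 without WT replicate 1, and with array weights it was 0.77 and passed the test (adjusted p = 0.0092). DKO gave 1.54 ± 0.28 (adjusted p = 0.000915) against WT and 1.39 ± 0.28 (adjusted p = 0.00205) against Rb KO. Hells also had the largest difference of the 10 between DKO and E2f8 KO, 1.11 ± 0.28 with an interval from 0.51 to 1.71 (adjusted p = 0.0567), and the largest interaction, 0.96 ± 0.39 (unadjusted p = 0.0289, adjusted p = 0.845). Neither passed the test.

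The promoters of all 10 genes were read for letters that E2F factors are known to bind. RefSeq windows of 300 bases on GRCm38.p6, 250 before to 50 after a start site, gave 13 windows for the 10 genes. The letters TTTCCCGC, TTTCGCGC, TTTGCCGC and TTTGGCGC were searched on both strands. They were found in 5 of the 13 windows, of Dnmt1, Uhrf1, Hells, Ezh2 and Suz12, against 2.26% of all 32851 windows and 3.75% of the 13005 windows of tested genes. Per gene this is 5 of 10, against 4.45% of 10317 tested genes with a window. Eed, Chaf1a, Chaf1b, Asf1a and Asf1b held no E2F match, and they too rose in DKO against WT. The 10 genes are of a kind already known as E2F targets, and a link between matches and signal differences was not tested. No such match overlapped a CCAAT or TTTGAA match. Of the 3 Dnmt1 windows only the furthest downstream on the gene's strand held matches, and of the 2 Uhrf1 windows only the downstream window did. Positions are given from the start site of that window. A match describes the letters of the window and is not evidence of binding. The following 60-base stretches show the matches of the methylation genes, read 5′ to 3′ on the gene's own strand with the E2F letters in capitals. The stretches are Dnmt1 at chr9:20952809-20952868 (minus strand, match at -219 from the start site, TTTCGCGC on the opposite strand) and at chr9:20952574-20952633 (minus strand, match at 34 after the start site), Uhrf1 at chr17:56304102-56304161 (plus strand, match at -185) and Hells at chr19:38930902-38930961 (plus strand, match at -62):
Dnmt1, upstream match: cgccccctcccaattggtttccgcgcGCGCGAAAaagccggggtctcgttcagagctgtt
Dnmt1, downstream match: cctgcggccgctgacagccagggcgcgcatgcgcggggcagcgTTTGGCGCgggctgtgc
Uhrf1: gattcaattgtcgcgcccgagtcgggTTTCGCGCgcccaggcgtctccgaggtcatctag
Hells: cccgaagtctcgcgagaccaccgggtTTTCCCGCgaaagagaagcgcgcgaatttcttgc

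Among the other genes that place, read or remove DNA methylation, calls were made in both directions. Of 15 measured genes of 17 listed, 4 rose and 2 fell in E2f8 KO against WT and 6 rose and 3 fell in DKO against WT, with medians of 0.10 and 0.40, against 0.06 and 0.00 over all genes. The numbers that fell are near the shares of all genes that fell in these comparisons (14.2% and 17.6%), where 11.9% and 20.6% rose. Uhrf2, the paralog of Uhrf1, rose by 1.24 ± 0.28 (adjusted p = 0.008) in E2f8 KO and by 1.48 ± 0.28 (adjusted p = 0.0013) in DKO. Cdca7, the partner of Hells in nucleosome remodelling, rose in DKO, by 1.07 ± 0.21 (adjusted p = 0.00162), and its E2f8 KO arrays (9.54, 9.49 and 9.59) lay within the WT range of 8.95 to 9.63. The de novo methyltransferase Dnmt3a went the other way from Dnmt1. Its levels were 7.13, 7.31 and 7.18 (WT), 6.79, 6.57 and 6.59 (E2f8 KO), 6.92, 7.39 and 7.35 (Rb KO), and 6.40, 6.32 and 6.39 (DKO), all E2f8 KO and DKO arrays lying below all others. It fell by 0.55 (SE 0.15, adjusted p = 0.0162) in E2f8 KO, a call lost without WT replicate 2 or E2f8 KO replicate 2 or 3 (adjusted p up to 0.0738), and by 0.83 (SE 0.15, adjusted p = 0.000833) in DKO. Tet2, which oxidises methylated cytosine, fell in DKO against WT (-1.17 ± 0.41, adjusted p = 0.0372), but not without WT replicate 1 or 2 or DKO replicate 1 or 2 (adjusted p up to 0.148), and its difference was 2.02 with the B cell marker mean as a covariate. Within Rb KO, Tet2 was at 5.99 on replicate 1, where the B cell marker mean was 9.89, and at 7.81 and 7.65 on replicates 2 and 3, where it was 11.97 and 11.92. With the B cell marker mean as a covariate the Dnmt3a difference was -0.14 (adjusted p = 0.907) in E2f8 KO and -0.22 (adjusted p = 0.729) in DKO, so neither call was kept.

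The PRC2 core rose together in E2f8 KO and in DKO. Ezh2, the H3K27 methyltransferase (probe set 10544501), was at 12.34, 12.11 and 12.67 (WT), 13.09, 13.07 and 13.04 (E2f8 KO), 12.62, 12.24 and 12.60 (Rb KO), and 13.33, 13.19 and 13.37 (DKO). The E2f8 KO arrays lay close together and, like the DKO arrays, above every WT and Rb KO array. Ezh2 rose by 0.69 ± 0.14 (adjusted p = 0.00432) in E2f8 KO and by 0.93 ± 0.14 (adjusted p = 0.000278), or 1.9-fold, in DKO, the smallest DKO rise of the 10 genes. Its signal ranked at the 99th percentile of the tested genes, which is a rank of probe set signal and not of transcript amount.

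Eed, which binds trimethylated H3K27 and stimulates the enzyme (probe set 10565486), was at 8.45, 8.14 and 8.07 (WT), 9.03, 9.09 and 9.20 (E2f8 KO), 8.15, 7.85 and 7.92 (Rb KO), and 9.41, 9.20 and 9.71 (DKO). Every E2f8 KO and DKO array lay above every WT and Rb KO array. The rise was 0.88 ± 0.18 (adjusted p = 0.00488) in E2f8 KO, 1.22 ± 0.18 (adjusted p = 0.000257) in DKO against WT, and 1.47 ± 0.18 (adjusted p = 0.000127) in DKO against Rb KO. A second Eed probe set was below the filter, with group means of 4.90 (WT), 5.28 (E2f8 KO), 5.12 (Rb KO) and 5.46 (DKO). Suz12, the scaffold subunit (probe set 10379346), was at 11.34, 10.55 and 11.09 (WT), 11.52, 11.62 and 11.79 (E2f8 KO), 11.49, 10.97 and 10.76 (Rb KO), and 11.86, 11.99 and 11.95 (DKO). Its rise in E2f8 KO, 0.66 ± 0.21 (adjusted p = 0.0358), had the highest adjusted p among the 8 calls, and its highest WT array lay just below its lowest E2f8 KO array, while Rb KO overlapped WT. In DKO it rose by 0.95 ± 0.21 (adjusted p = 0.00336).

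The E2F letters of the PRC2 genes lie in these stretches, shown for comparison with those of the methylation genes, with the letters again in capitals. They are Ezh2 at chr6:47594994-47595053 (minus strand, match at 4 after the start site) and Suz12 at chr11:79992861-79992920 (plus strand, match at -219):
Ezh2: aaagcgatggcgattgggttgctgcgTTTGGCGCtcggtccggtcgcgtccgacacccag
Suz12: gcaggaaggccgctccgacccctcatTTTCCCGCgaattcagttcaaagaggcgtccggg

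Of 9 PRC2 partners, 2 rose in E2f8 KO against WT, the histone-binding proteins Rbbp4 (0.82 ± 0.12, adjusted p = 0.00116) and Rbbp7 (0.98 ± 0.18, adjusted p = 0.00326), and none fell. Both also belong to other chromatin complexes, and Rbbp4 is the small subunit of CAF-1. In DKO against WT 5 rose and 1 fell. Of all genes, 11.9% rose in E2f8 KO against WT, and 20.6% rose and 17.6% fell in DKO against WT. The medians of the 9 partners were 0.05 and 0.64 in these comparisons, against 0.06 and 0.00 over all genes. In DKO against E2f8 KO 1.73% of all genes rose. Phf19, an accessory subunit that binds methylated H3K36, was the 1 partner called in DKO against E2f8 KO, at 7.15, 8.24 and 7.91 (DKO) and 6.38, 6.50 and 6.39 (E2f8 KO) (1.35 ± 0.22, adjusted p = 0.00757). That call was lost without both arrays that carried the Y-linked signal (1.26, adjusted p = 0.136). The gene that fell in DKO was Ezh1, the paralog of Ezh2 that prevails in cells that do not divide (-0.59 ± 0.19, adjusted p = 0.0244). That call was lost without WT replicate 1 or 2 or DKO replicate 3 (adjusted p up to 0.126), and in E2f8 KO against WT it gave -0.13 ± 0.19 (adjusted p = 0.635).

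Chaf1a, the large CAF-1 subunit that contacts Pcna (probe set 10446027), was at 9.07, 8.36 and 8.44 (WT), 9.58, 9.57 and 9.39 (E2f8 KO), 9.56, 9.12 and 8.38 (Rb KO), and 10.09, 10.32 and 10.27 (DKO). Rb KO replicate 1 reached the E2f8 KO level, while Rb KO replicate 3 lay among the WT arrays. It rose by 0.89 ± 0.27 (adjusted p = 0.0282) in E2f8 KO and by 1.61 ± 0.27 (adjusted p = 0.000585), or 3.05-fold, in DKO. Chaf1b, the middle subunit (probe set 10437040), was at 10.57, 9.97 and 10.14 (WT), 10.75, 10.67 and 10.96 (E2f8 KO), 11.03, 10.58 and 9.88 (Rb KO), and 11.47, 11.74 and 11.64 (DKO). The E2f8 KO and WT arrays did not overlap, but the difference of 0.56 ± 0.25 did not pass the test (adjusted p = 0.111). In DKO it was 1.39 ± 0.25 (adjusted p = 0.000871), and DKO against E2f8 KO gave 0.83 ± 0.25 (adjusted p = 0.107), with an interval from 0.29 to 1.36.

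Asf1a (probe set 10363163) had the largest E2f8 KO difference of the 10 genes. Its levels were 9.09, 8.26 and 8.57 (WT), 10.16, 10.06 and 10.03 (E2f8 KO), 9.03, 8.31 and 7.91 (Rb KO), and 10.18, 10.04 and 10.37 (DKO). The E2f8 KO and DKO arrays interleaved, and all of them lay above all WT and Rb KO arrays. It rose by 1.44 ± 0.27 (adjusted p = 0.00326) in E2f8 KO and by 1.55 ± 0.27 (adjusted p = 0.00072) in DKO, and DKO against E2f8 KO gave 0.11 ± 0.27 (adjusted p = 0.843), with an interval from -0.47 to 0.69. Asf1b, the form tied to dividing cells (probe set 10573261), was at 12.71, 12.10 and 12.36 (WT), 13.42, 13.39 and 13.30 (E2f8 KO), 12.86, 12.40 and 11.97 (Rb KO), and 13.36, 13.37 and 13.59 (DKO). It too had E2f8 KO and DKO arrays that overlapped. It rose by 0.98 ± 0.19 (adjusted p = 0.0042) and 1.05 ± 0.19 (adjusted p = 0.00104), and DKO against E2f8 KO gave 0.07 ± 0.19, with an interval from -0.34 to 0.49.

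The Asf1b promoter window (chr8:83955444-83955743, plus strand, RefSeq on GRCm38.p6) is shown whole because it holds, at -14 from the start site, the letters TTTGAA of the cell cycle genes homology region (CHR), in capitals, which bind the MuvB complex in other cell cycle promoters. These letters were found in 4 of the 13 windows, of Dnmt1, Eed, Suz12 and Asf1b, against 17.9% of all windows and 11.9% of those of tested genes. The letters CCAAT were found in 10 of the 13, against 37.4% of all windows and 36.8% of those of tested genes, both searched on both strands:
Asf1b: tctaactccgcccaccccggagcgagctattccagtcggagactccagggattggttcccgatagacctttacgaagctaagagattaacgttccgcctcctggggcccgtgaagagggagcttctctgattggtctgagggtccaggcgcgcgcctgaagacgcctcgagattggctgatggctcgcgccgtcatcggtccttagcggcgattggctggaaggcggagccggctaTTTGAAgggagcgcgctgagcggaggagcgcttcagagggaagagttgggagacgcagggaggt

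Paralogs within an array changed unequally. The log2 signal of Asf1b minus that of Asf1a was 3.62, 3.84 and 3.79 (WT) and 3.83, 4.09 and 4.06 (Rb KO), and 3.26, 3.33 and 3.27 (E2f8 KO) and 3.18, 3.33 and 3.22 (DKO). Every array with the E2f8 label lay below every array without it. The mean difference was -0.60 (exact two-sided permutation test within each Rb label, 400 arrangements, p = 0.005, adjusted over 2 contrasts p = 0.005, the smallest p it can give), so the Asf1a signal rose more than the Asf1b signal. The Asf1b probe set was the brighter, at the 99.1st percentile against 79.8 for Asf1a. Whether signal follows RNA amount equally at both levels was not tested. Ezh2 minus Ezh1 was 2.39, 2.18 and 2.92 (WT) and 2.73, 2.67 and 2.95 (Rb KO), and 3.12, 3.36 and 3.48 (E2f8 KO) and 3.79, 3.81 and 4.43 (DKO). Again no array with the E2f8 label overlapped one without it, here in the opposite direction, by 1.03 (the same exact permutation test, p = 0.005, adjusted p = 0.005). Such a difference shows unequal change between the signals of the paralogs and not that either was constant.

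**Figure D4:**
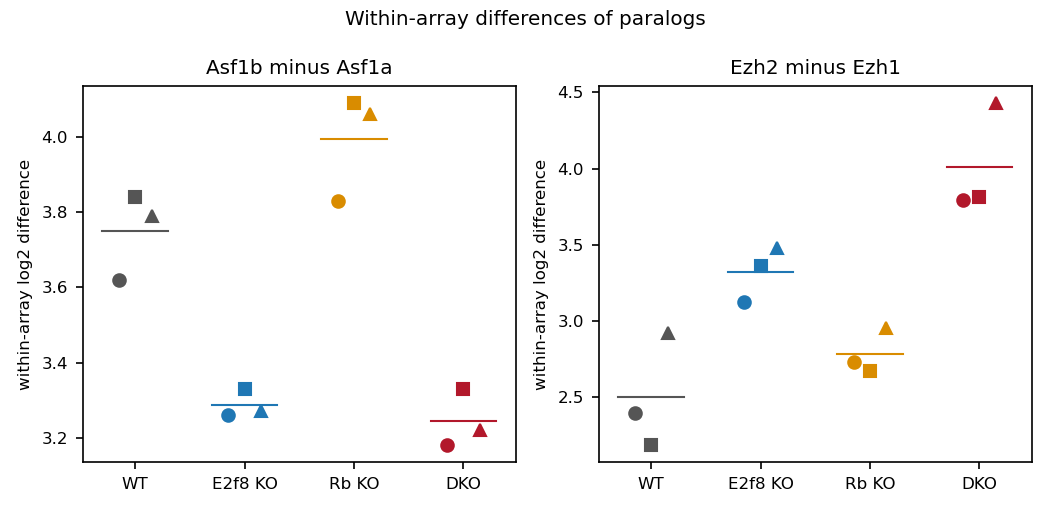
Log2 signal of 1 paralog minus the other on each array (vertical axis), by genotype label, for Asf1b minus Asf1a and Ezh2 minus Ezh1; circle, square and triangle are replicates 1, 2 and 3 and the line is the group mean. Asf1b minus Asf1a is 3.18 to 3.33 on the E2f8 KO and DKO arrays and 3.62 to 4.09 on the others, while Ezh2 minus Ezh1 is 3.12 to 4.43 against 2.18 to 2.95.

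Other histone chaperones and chromatin factors that act at the fork rose in many of their members in E2f8 KO and in DKO. Of 27 measured, 13 rose and none fell in E2f8 KO against WT (median 0.63), 22 rose in DKO against WT (median 0.96) and 21 in DKO against Rb KO (median 0.88), where 11.9%, 20.6% and 19.5% of all genes rose. The 13 calls became 6 without WT replicate 2, 7 without E2f8 KO replicate 2 and 8 without E2f8 KO replicate 3. The calls over all genes went from 3388 to 1538, 2046 and 2209 in these fits. Cdan1, or codanin-1, which binds Asf1 and holds it in the cytoplasm and whose human counterpart is mutated in congenital dyserythropoietic anaemia, had the smallest p of the list in E2f8 KO. It was at 9.04, 8.53 and 8.69 (WT), 10.13, 10.08 and 10.06 (E2f8 KO), 9.09, 8.71 and 8.27 (Rb KO), and 10.27, 10.12 and 10.24 (DKO). The E2f8 KO and DKO arrays overlapped each other and lay above all others, as for Asf1a, with rises of 1.34 ± 0.21 (adjusted p = 0.00126) and 1.46 ± 0.21 (adjusted p = 0.000191). Tonsl, a reader of new histones (1.10 ± 0.23, adjusted p = 0.0269), and the remodeller Smarcad1 (1.01 ± 0.20, adjusted p = 0.0239) were the 2 of the list that rose in DKO against E2f8 KO, where 1.73% of all genes rose. Both calls were lost without E2f8 KO replicate 1 or 2 or DKO replicate 2 or 3, that of Tonsl also without E2f8 KO replicate 3.

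The replication fork core (30 genes, all measured) rose in 14 genes in E2f8 KO against WT, in 28 in DKO against WT and in 25 in DKO against Rb KO, and fell in none. Of all genes, 11.9%, 20.6% and 19.5% rose in these comparisons. The medians of the fork core were 0.62, 1.26 and 0.85, beside 0.79, 1.30 and 1.16 for the 10 genes. In Rb KO against WT its median was 0.34, with 29 of 30 differences above 0 and none called, beside 0.13 for the 10 genes, and in DKO against E2f8 KO it was 0.64, with 2 called, beside 0.43. Of all genes, 1.73% rose in DKO against E2f8 KO. Whether the lists differ was not tested. The 14 calls of E2f8 KO became 3 without WT replicate 2, 4 without E2f8 KO replicate 1, 7 without E2f8 KO replicate 3 and 8 without E2f8 KO replicate 2 or WT replicate 3. The calls over all genes, 3388 with all arrays, were 1538, 1890, 2209, 2046 and 3644 in these fits, in that order. Pcna, the clamp that CAF-1 and Dnmt1 bind, rose by 0.61 ± 0.16 (adjusted p = 0.0138) in E2f8 KO, though not without WT replicate 2 (adjusted p = 0.061) or E2f8 KO replicate 1 (adjusted p = 0.0516), and by 0.78 ± 0.16 (adjusted p = 0.00168) in DKO. Rpa2, a subunit of the single-strand binding protein, had the smallest p of this list in both comparisons, with rises of 1.50 ± 0.23 (adjusted p = 0.00124) and 1.99 ± 0.23 (adjusted p = 5.17e-05).

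**Figure D5:**
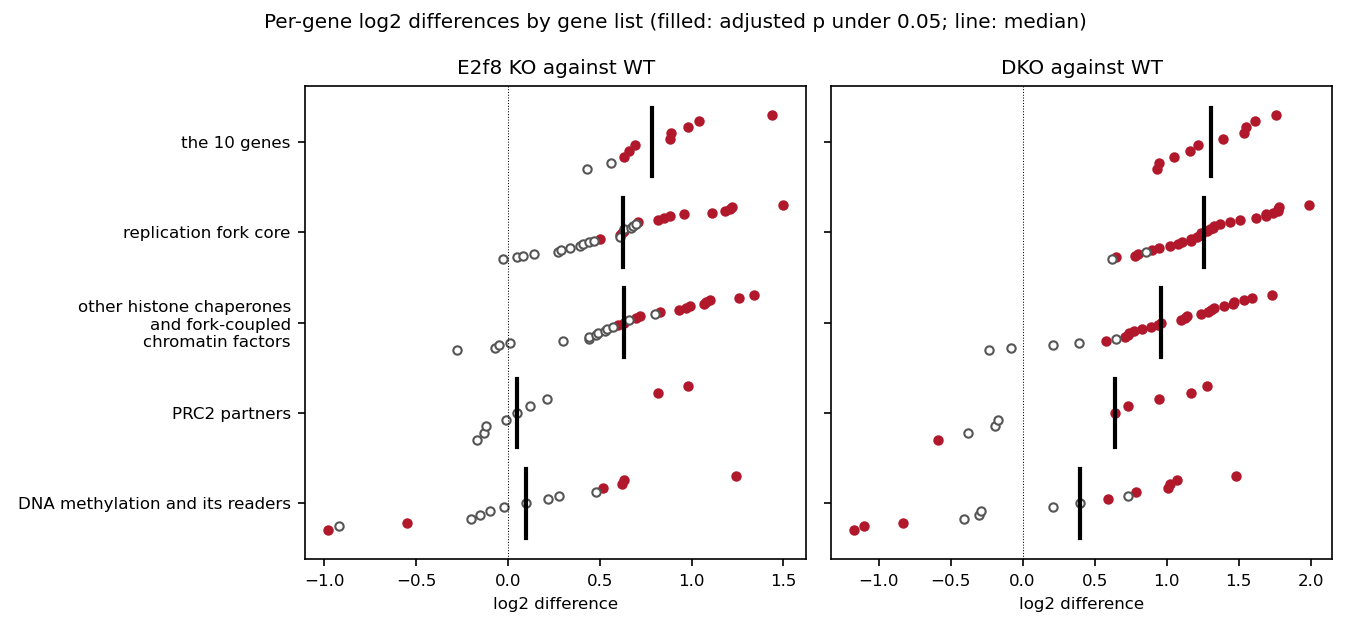
Log2 difference (horizontal axis) of each measured gene, by gene list (rows), in E2f8 KO against WT and in DKO against WT; filled points have an adjusted p under 0.05 and the vertical line is the list's median. The medians are 0.79 and 1.30 for the 10 genes and 0.62 and 1.26 for the replication fork core, while the list of DNA methylation genes and readers (0.10 and 0.40) has points on both sides of 0.

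The 10 genes followed each other across the 12 arrays. Over all 45 pairs the correlation of log2 levels ranged from 0.755 (Ezh2 with Chaf1b) to 0.99 (Asf1a with Asf1b), with a median of 0.9. With the group means removed, the median was 0.816 and the range -0.0623 to 0.985, so most pairs also moved together between replicates of a group. Ezh2 followed the other members least, with correlations from -0.0623 (Chaf1a) to 0.471 (Hells). Among these were -0.0213 with Chaf1b, 0.196 with Eed and 0.388 with Suz12. These are descriptions over arrays that fall into separate sets by genotype label, and pairs share the RNA and signal scale of their array. The genes outside the 10 whose level was most like their standardised mean, by Pearson's correlation over the 12 arrays, were Paxip1 (0.995), Eri1 (0.995), Fbxo48 (0.994), Stag1 (0.994), Mfsd12 (0.993), Atad2 (0.992), Gtf2a2 (0.992) and St3gal4 (0.991). For single members the nearest were Jade3 for Asf1b (0.995), Cnot6 for Asf1a (0.995), Chtf18 for Chaf1b (0.993) and Mybl2 for Chaf1a (0.991).

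Between the 3 replicates of a group, the B cell marker mean and the standardised mean of the 10 genes are given here as a description only. WT replicate 2 had the lowest standardised mean of the 10 genes in its group (-1.41) and the highest B cell marker mean (11.96), but the lowest B cell marker mean was on replicate 3 (10.50) and the highest standardised mean on replicate 1 (-0.40). Rb KO replicate 1 had the highest standardised mean of its group (-0.10) and the lowest B cell marker mean (9.89). The B cell marker means of replicates 2 and 3 were close together (11.97 and 11.92), and replicate 3 had the lowest standardised mean (-1.23). In E2f8 KO the standardised means ran from 0.38 to 0.46 and the B cell marker means from 8.10 to 8.50, both highest on replicate 3. In DKO it was replicate 3 that had both the highest standardised mean (1.34) and the highest B cell marker mean (7.57), along with the highest granulocyte marker mean (10.23). The part of these cells in the levels of the 10 genes was not tested beyond the covariate fits.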

How the data were processed

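Log2 values per probe set were used as deposited by the authors, for 12 arrays; the log2 scale was inferred from their range (1.0678 to 14.8423). The submitters' processing notes name MAS5, without a version. The sources used here do not state the background correction or normalization. Of 35557 probe sets, 21789 carried 1 symbol, 1621 several and 12147 none. The lowest 40% by mean level (14223, below 5.84) were removed, and a gene with several probe sets was represented by its brightest on average, for 12980 genes. No scan date or batch was given, and array medians lay between 6.22 and 6.35.

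All 12 arrays entered 1 fit of limma 3.58.1 (R 4.3.3) with a mean trend and 8 residual degrees of freedom, with two-sided tests, Benjamini-Hochberg adjustment within each of 6 comparisons and a threshold of 0.05. ± after a difference is its SE; intervals are 95%. The p-values measure the spread between these arrays, whose number limits the precision. Scripts were tested on simulated data.

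Named genes are all members, the pathway genes with the smallest p plus Ezh1, Rbbp4, Rbbp7, Pcna and Cdan1, cell type markers, and the genes most correlated with the members. The text names fewer genes than that rule allows, and Tet2, which it does not cover, was named with its values seen. The members and lists were chosen with earlier results of these data known. Alternatives were other filters, scalings, probe set rules and variance models, array weights, fits of the compared groups alone, a replicate block, marker covariates, and leaving out arrays. Promoter windows came from RefSeq on GRCm38.p6.

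Same-numbered replicates were checked for pairing: their deviations from group means correlated from -0.379 to 0.57 over 18 pairs of arrays (median 0.0731), so the numbers were not taken to pair arrays.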

Additional observations from a re-analysis of the deposited data

How the results depend on the processing

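The counts of genes called were recomputed under other settings. In E2f8 KO against WT (8 of 10 called) the count was 5 at an adjusted p under 0.01, 2 with at least a 2-fold change, 0 with the B cell marker mean as a covariate, 0 with the B cell and macrophage means, and 5 to 9 without 1 array. It was 10 with array weights, 9 with only the groups compared and 6 with each array centred on its median (Suz12, adjusted p = 0.0656, and Chaf1a, adjusted p = 0.0501, lost). In DKO against WT (10 called) both covariate fits gave 0. In DKO against Rb KO (10 called) the B cell covariate gave 0 and both covariates gave 1, Eed (1.46, adjusted p = 0.0406). Without 1 array, both of these kept 10. In DKO against E2f8 KO (0 called) the count was 1 with the lowest 60% removed (Hells), 1 with quantile normalization (Uhrf1), 5 with array weights, 6 when only the groups compared were fitted, 1 with both covariates (Chaf1b) and 0 to 3 without 1 array. The replicate block gave 1 there (Uhrf1, adjusted p = 0.0485) and changed no other count of the 10 genes; the numbers do not pair the arrays. Rb KO against WT and the interaction gave 0 under every setting run.

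Over all genes the counts of calls were 3388, 1, 4952, 4819, 308 and 10 for the 6 comparisons, here in the order E2f8 KO, Rb KO and DKO against WT, then DKO against both single knockouts (Rb KO, E2f8 KO), then the interaction. Array weights gave 5947, 149, 5980, 6407, 2368 and 87. An adjusted p under 0.01 gave 1410 in the E2f8 KO, 3255 in the DKO, 3082 in the DKO against Rb KO and 81 in the DKO against E2f8 KO comparison, and a 2-fold minimum gave 1481, 2347, 2168 and 152. The B cell covariate gave 284, 64, 958, 511, 1715 and 159, and both covariates 454, 9, 742, 940, 1431 and 283. Quantile normalization gave 14 in Rb KO against WT, and fitting only the groups compared gave 0 there and 1262 in DKO against E2f8 KO. E2f8 KO against WT gave 1538 without WT replicate 2, 1890, 2046 and 2209 without E2f8 KO replicate 1, 2 and 3, and 2099 without both arrays with a Y-linked signal, which left 44 in DKO against E2f8 KO. DKO against E2f8 KO ranged from 82 to 711 without 1 array, Rb KO against WT from 1 to 139 and the interaction from 2 to 49; the interaction gave 6 with the lowest 60% removed and 4 at an adjusted p under 0.01. With the B cell covariate, the methylation, PRC2 partner, chaperone and fork core lists gave 0 calls in E2f8 KO against WT and 1, 1, 2 and 0 in DKO against WT, settings added for these lists after the data were seen.

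Differences that changed sign were mostly those close to 0 or those of the covariate fits, in which the slope comes from differences within groups and is carried over the distance between them. With the B cell covariate, E2f8 KO against WT gave -0.48 for Hells, -0.09 for Suz12 and -0.14 for Chaf1b, DKO against WT gave -0.17 for Suz12, 2.02 for Tet2 and -0.09 for Pcna, and DKO against Rb KO gave -0.0046 for Hells and -0.28 for Suz12. DKO against E2f8 KO gave -0.08 for Suz12, -0.32 for Asf1a and -0.24 for Asf1b, and the interaction gave -0.07 for Uhrf1 and for Chaf1a, -0.09 for Ezh2, -0.14 for Asf1a, -0.19 for Suz12 and -0.28 for Asf1b. With both covariates, E2f8 KO against WT gave -0.24 for Hells, Rb KO against WT gave -0.10 for Ezh2, 0.33 for Eed and 0.76 for Asf1a, DKO against WT gave 1.65 for Tet2, DKO against Rb KO gave -0.21 for Suz12 and DKO against E2f8 KO gave -0.10 for Ezh2. The interaction then gave -0.01 for Ezh2, -0.13 for Chaf1b, -0.20 for Uhrf1, -0.32 for Suz12, -0.43 for Chaf1a, -0.49 for Asf1a and -0.56 for Asf1b. Without both arrays with a Y-linked signal, Asf1b gave -0.04 in DKO against E2f8 KO and -0.05 in the interaction. Without 1 array, differences in Rb KO against WT ranged from -0.16 to 0.39 for Hells, -0.02 to 0.26 for Ezh2, -0.14 to 0.26 for Suz12, -0.53 to 0.03 for Asf1a and -0.21 to 0.24 for Asf1b. Asf1b in DKO against E2f8 KO ranged from -0.0015 to 0.11, and the interaction from -0.03 to 0.25 for Ezh2, -0.0037 to 0.59 for Chaf1a and -0.16 to 0.28 for Asf1b. Of the values that changed sign, that of Tet2 with the B cell covariate passed the test (adjusted p = 0.0123) and no other did.

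Both paralog contrasts kept their sign and call with quantile normalization, at -0.48 and 1.20. Without 1 array the contrasts were -0.64 to -0.58 and 0.92 to 1.13. Leaving out 1 array could not change their sign or call, since no array with the E2f8 label overlapped one without it. Whether they hold with the marker means as covariates, or without both arrays with a Y-linked signal, was not tested.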
